A study of Mus musculus with 4 samples.

Results

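The genes described here are 33 mouse genes of fatty acid oxidation, ketone body synthesis and the response to the nuclear receptor PPAR alpha, compared between livers with a conditional knockout of NIPP1 and control livers. They were chosen by name and function, from a fixed list of symbols on the array. They comprise 16 mitochondrial genes, 8 peroxisomal genes, 2 ketogenic genes, 2 acyl-CoA synthetases and 5 further PPAR alpha targets (Pdk4, Fgf21, Angptl4, Vnn1 and Vnn3). All 33 were represented, by 40 probes, and all 33 were tested among 16247 genes or unnamed probes. Every one was well above background in all 4 knockout and all 4 control mice, so none entered through 1 genotype alone.

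NIPP1 is the product of Ppp1r8, a regulatory protein that binds protein phosphatase 1 in the nucleus. The knockout livers came from 4 untreated male mice aged 2 months with a liver-directed conditional NIPP1 knockout, and the control livers from 4 untreated male mice of the same age, all of mixed strain. Each of 4 two-colour arrays carried the liver RNA of 1 knockout and 1 control mouse, with the knockout in Cy3 on replicates 1 and 2 and in Cy5 on replicates 3 and 4, so 8 different mice were measured and a difference between dye orientations cannot be told apart from a difference between mice. Nothing in the sources used here names the Cre line, the deleted exons or the feeding state.

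Fatty acids are activated to acyl-CoA by synthetases, carried into mitochondria as carnitine esters and shortened by repeated rounds of dehydrogenation, hydration, oxidation and thiolysis. Peroxisomes begin the shortening of very long chains, and in fasting liver the acetyl-CoA formed feeds ketone body synthesis. PPAR alpha, bound as a heterodimer with RXR to paired hexamer repeats in DNA, raises transcription of many of these genes when fatty acids reach the liver.

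Ppp1r8 itself was lower in the knockout mouse on every array. Its log2 ratio of knockout over control was -1.25, -1.04, -1.15 and -1.43 on replicates 1 to 4, with a fitted value of -1.22 ± 0.08 (SE, n = 4 arrays, limma adjusted p = 0.0636). A second Ppp1r8 probe gave -1.18, -1.46, -1.39 and -1.28. The labels do not say whether the deleted exons hold either probe. Ppara, which encodes the receptor, had log2 ratios of -0.71, -0.34, 0.05 and 0.59, with a fitted value of -0.10 ± 0.13 (adjusted p = 0.674), and so was below 0 on both arrays with the knockout in Cy3 and above 0 on both with it in Cy5. The share of spots well above background per channel was 52.7% to 56.3%, and the number of arrays limits the precision.

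Most oxidation genes had similar signals in knockout and control livers, and 2 of the 3 members called at the looser threshold were further PPAR alpha targets. Vnn1, Vnn3 and Crat were higher in knockout livers at an adjusted p under 0.1, by 3.47-fold, 1.47-fold and 1.39-fold. No member was lower at that threshold in this fit, while Acaa1a was in 6 and Acat1 in 4 of 14 alternative settings. The separate-channel fit also put Slc25a20, Acadvl, Etfdh and Crot lower at 0.1, a threshold at which it called 2011 of 16235 genes lower. Leaving out any 1 replicate ended all 3 calls of higher members, but each of those fits called 0 of all 16247 genes at 0.1. Leaving out the filter on dim probes ended them too, in a fit that called 7 of 30397 genes or unnamed probes higher. The loss of these calls is thus not particular to the 3 members. At an adjusted p under 0.05 limma called 0 of the 33 members, against 0.0492% of all tested genes in either direction. At 0.1 it called 3 of 33 higher, against 2.65% of all genes, and 0 of 33 lower, against 1.53% of all genes. At an unadjusted p under 0.05, 4 members were higher (Crat, Hadh, Vnn1 and Vnn3), against 11.6% of all genes, and 4 were lower (Slc25a20, Acadvl, Acaa1a and Acat1), against 10.3%. A fit of the separate channels, which treats the mice of an array as correlated samples, called 8 members at 0.05, where it called 2511 of 16235 genes.

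Crat, Hadh, Bdh1, Vnn1 and Vnn3 were above 0 on all 4 arrays, 5 of 33 against 12.6% of all genes, and Slc25a20, Acadvl, Acaa1a, Acat1 and Acsl1 were below 0 on all 4, 5 of 33 against 12.3% of all genes. An exact sign-flip test on 4 arrays cannot go below p = 0.125, two-sided, so for a single gene it adds no call. The median fitted log2 ratio was 0.00 over the members and -0.01 over all genes, and the median size of the log2 ratio was 0.14 over the members and 0.13 over all genes. For 30 of the 33 members the fitted log2 ratio lay within 0.5 of 0, as it did for 14918 of the 16247 genes. Because whole liver pieces were measured, fewer cells of a type and less RNA per cell cannot be told apart.

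**Figure D1:**
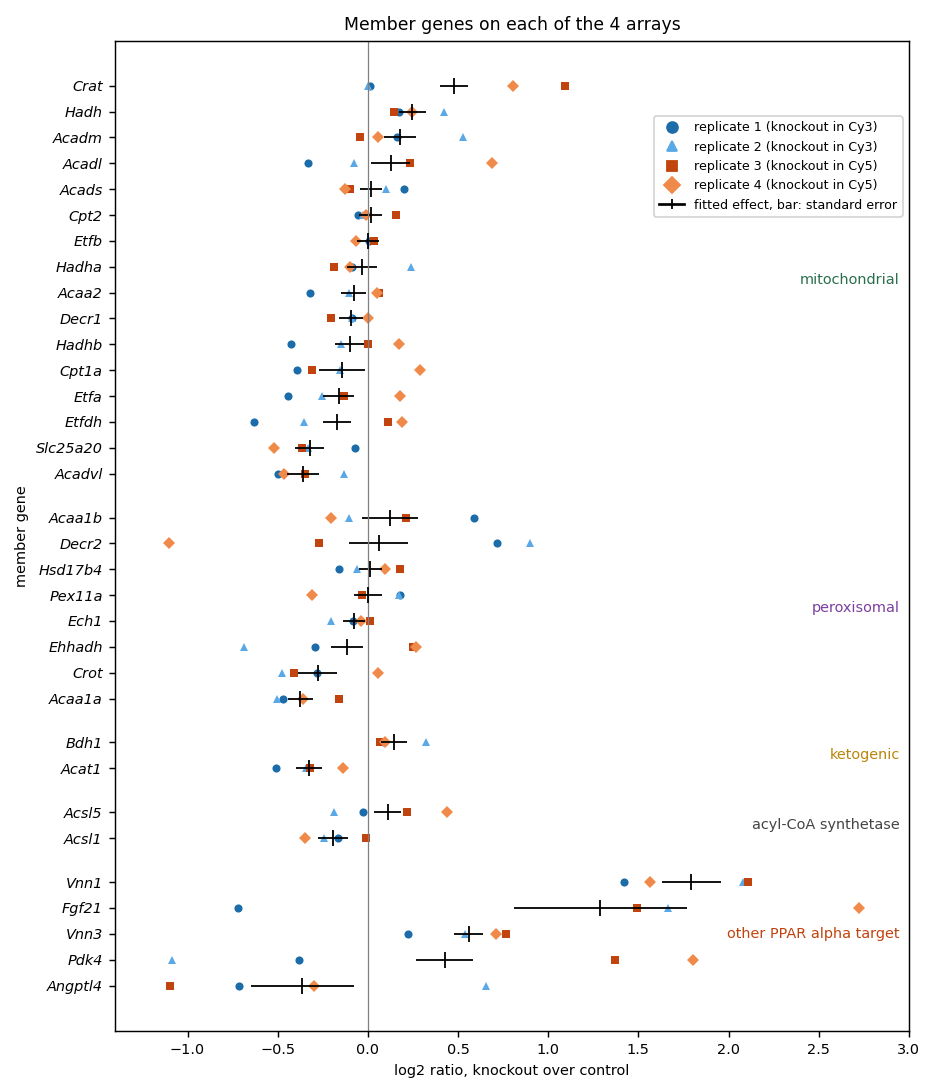
Each row is a member gene, grouped by class, and the horizontal axis is the log2 ratio of knockout over control. Coloured points are the 4 arrays (blue, knockout in Cy3; red and orange, knockout in Cy5), black ticks the fitted effect and black bars its standard error (n = 4 arrays). Vnn1 and Vnn3 are above 0 on all 4 arrays, Pdk4 is below 0 on replicates 1 and 2 and above 0 on replicates 3 and 4, and most enzyme genes lie close to 0.

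The probe sequences of 5 members are shown because Vnn1 and Vnn3 are neighbouring paralogs and Acaa1a and Acaa1b closely related ones, and because Crat was dim. These are the first 30 of the 60 bases of each probe, 5′ to 3′ and in lower case throughout, with the probe positions of the array files on mm9.
Vnn1, chr10:23624524-23624583 (+): ctgtttgtcaacagtggactcgggtgtaag
Vnn3, chr10:23587033-23589353 (+): tgctaagtgggagtcaacttgccctggaaa
Crat, chr2:30265479-30265538 (-): tactccagcccaggagtgatcctgcccaag
Acaa1a, chr9:119259353-119259412 (+): ccctggttgcaaagccatttgtacctttga
Acaa1b, chr9:119057326-119057385 (-): tctgcgtgggacactcagcagtggaggagt
Within each paralog pair, the full probes shared at most 6 identical bases in a row. The Vnn3 probe covers 2321 bases of genome, more than its own length, and so lies across a splice junction. Exons and UTRs were not assigned to the other probes.

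Among the further PPAR alpha targets, Vnn1 was higher in every knockout liver than in any control liver. Vnn1 encodes a pantetheinase, which splits pantetheine into the vitamin pantothenate and cysteamine, and is a PPAR alpha target in mouse liver. Its processed signal was 2051, 1532, 2174 and 1391 in knockout mice, against 767, 362, 504 and 471 in control mice, on replicates 1 to 4. The lowest knockout value lay above the highest control value. How many of all tested genes show no overlap was not counted, here or for the members below. The log2 ratios of 1.42, 2.08, 2.11 and 1.56 gave a fitted value of 1.79 ± 0.16 (SE, n = 4 arrays, limma adjusted p = 0.0673).

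Vnn3 encodes a second pantetheinase and lies beside Vnn1 on chromosome 10. Its signal was 5395, 4696, 6323 and 4457 in knockout mice, against 4617, 3233, 3718 and 2725 in control mice. The genotypes overlapped, since the control mouse of replicate 1 exceeded the knockout mouse of replicate 4, but each knockout mouse exceeded the control mouse of its own array. The fitted log2 ratio was 0.56 ± 0.08 (adjusted p = 0.0869). The adjusted p was 0.135 without the dye term and 0.165 without the filter on dim probes.

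Fgf21 encodes a hormone released by the liver in fasting and made in the exocrine pancreas as well. Its signal was 583, 2049, 838 and 1370 in knockout mice, against 960, 646, 298 and 208 in control mice. It was higher in the knockout mouse on replicates 2, 3 and 4 and lower on replicate 1, with log2 ratios of -0.72, 1.67, 1.49 and 2.72. The fitted value of 1.29 ± 0.48 did not pass (adjusted p = 0.237). Without replicate 1 the fitted value was 1.89. That fit leaves replicate 2 alone with the knockout in Cy3 and cannot decide whether Fgf21 passes, so only the size is given. Replicate 1 was also the array on which pancreatic acinar markers were high in the knockout mouse: the summed signal of 10 tested of 12 listed markers was 39572, 629, 540 and 580 in knockout mice, against 1939, 6886, 712 and 1929 in control mice. The median log2 ratio of these markers was 4.63, -4.95, -0.31 and -4.23. Their part in the Fgf21 values was not tested.

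Pdk4 encodes a kinase that shuts down pyruvate dehydrogenase and so spares glucose while fat is burned. Its signal was 621, 466, 864 and 873 in knockout mice, against 810, 989, 334 and 250 in control mice. The sign followed the dye orientation, with log2 ratios of -0.38 and -1.09 where the knockout was in Cy3 and 1.37 and 1.80 where it was in Cy5. Its fitted value of 0.43 ± 0.16 (adjusted p = 0.235) averages these opposite signs. Under the model without a dye term the adjusted p was 0.759.

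Angptl4, a secreted inhibitor of lipoprotein lipase, had signals of 15322, 23895, 20746 and 19179 in knockout mice, against 25137, 15153, 44350 and 23594 in control mice. It was lower in the knockout mouse on 3 of 4 arrays, and the fitted log2 ratio of -0.36 ± 0.29 did not pass (adjusted p = 0.507). The 5 further targets therefore did not share a direction, although their median fitted log2 ratio was 0.56.

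**Figure D2:**
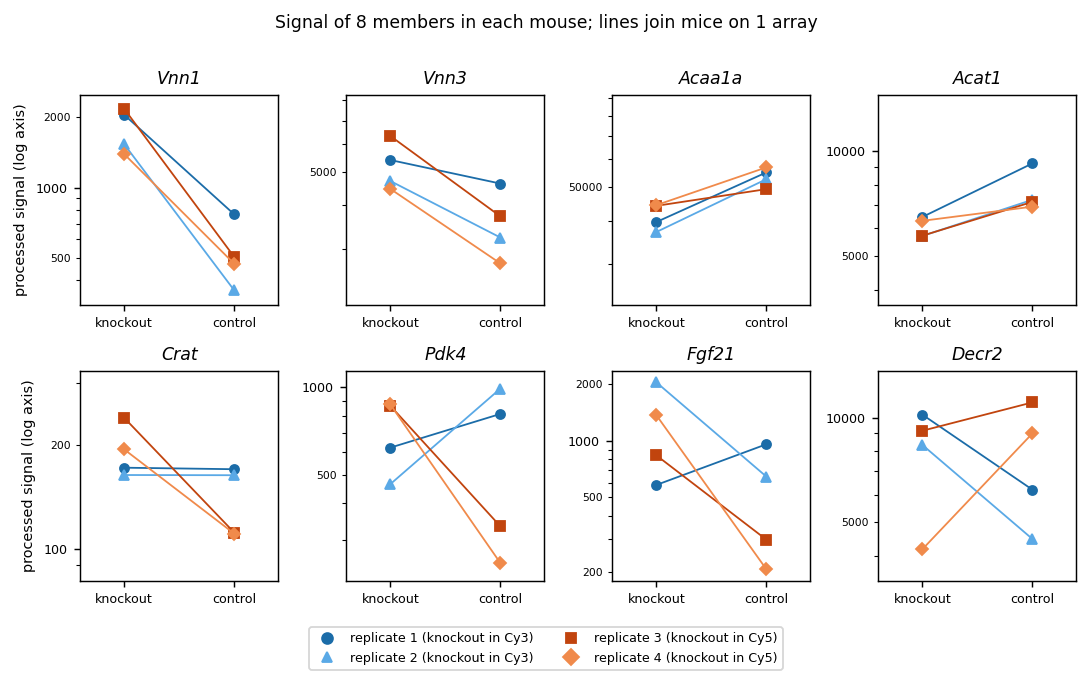
Processed signal on a log axis for 8 members, knockout mice on the left and control mice on the right of each panel, with a line joining the mice of 1 array. The genotypes do not overlap for Vnn1, Acaa1a and Acat1, a pattern that was not counted over all genes. For Pdk4 and Decr2 the lines of replicates 1 and 2 run against those of replicates 3 and 4.

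No mitochondrial gene but Crat passed an adjusted p of 0.1. At the entry of fatty acids, Cpt1a, which encodes the outer-membrane carnitine palmitoyltransferase that sets the rate of import, had log2 ratios of -0.39, -0.16, -0.31 and 0.29 and a fitted value of -0.14 ± 0.13 (limma adjusted p = 0.557). Slc25a20, the carnitine-acylcarnitine translocase of the inner membrane, was below 0 on all 4 arrays, with -0.07, -0.33, -0.36 and -0.52. Its signals of 1621, 1224, 1301 and 1311 in knockout mice, against 1702, 1544, 1675 and 1882 in control mice, overlapped only through the knockout mouse of replicate 1. The fitted value of -0.32 ± 0.08 did not pass (adjusted p = 0.150). Cpt2, which releases the acyl-CoA inside the mitochondrion, had a fitted log2 ratio of 0.01 ± 0.06.

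Crat encodes the carnitine acetyltransferase that buffers acetyl-CoA. Its signal was 172, 163, 238 and 194 in knockout mice, against 170, 163, 112 and 110.9 in control mice. On replicates 1 and 2 the genotypes were level, at log2 ratios of 0.01 and 0.00, and on replicates 3 and 4 the knockout was higher, at 1.09 and 0.80. The fitted log2 ratio of 0.48 ± 0.08 (adjusted p = 0.0946) comes from a model with a dye term, whose error leaves out the gap between the orientations. Without the dye term the adjusted p was 0.391.

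Of the 4 acyl-CoA dehydrogenases, which differ in the chain length they oxidise, the very-long-chain enzyme was lower in knockout livers on every array. Acadvl had signals of 38616, 43120, 44600 and 39702 in knockout mice, against 54499, 47333, 56755 and 54823 in control mice, and the genotypes did not overlap. Its fitted log2 ratio was -0.36 ± 0.09 (adjusted p = 0.150). The fitted values of Acadl, Acadm and Acads, for long, medium and short chains, were 0.13 ± 0.11, 0.18 ± 0.09 and 0.02 ± 0.06, none of which passed. Acadl was above 0 only with the knockout in Cy5, at 0.23 and 0.69, and Acads only with the knockout in Cy3, at 0.20 and 0.10.

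No gene of the remaining steps of the spiral passed, and apart from Hadh their fitted log2 ratios lay between -0.10 and -0.03. Hadha and Hadhb, the subunits of the trifunctional protein, had fitted log2 ratios of -0.03 ± 0.08 and -0.10 ± 0.08. Hadh, the dehydrogenase for shorter chains, was above 0 on all 4 arrays at 0.17, 0.42, 0.15 and 0.25, with a fitted value of 0.25 ± 0.07 that did not pass (adjusted p = 0.186). Its signals were 14578, 13501, 14465 and 12528 in knockout mice, against 12931, 10080, 13065 and 10570 in control mice, an overlap made by the knockout mouse of replicate 4. Acaa2, the mitochondrial thiolase, had a fitted value of -0.08 ± 0.07. Decr1, the reductase for unsaturated chains, had -0.09 ± 0.07 on its brighter probe and an average of -0.61 on its dimmer probe, whose arrays ran between -1.21 and 0.12.

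Electrons from the dehydrogenases pass through the flavoprotein subunits Etfa and Etfb to the ubiquinone oxidoreductase Etfdh. Their fitted log2 ratios were -0.16 ± 0.09 for Etfa, 0.00 ± 0.06 for Etfb and -0.17 ± 0.08 for Etfdh. Etfdh was below 0 with the knockout in Cy3, at -0.63 and -0.35, and above 0 with it in Cy5, at 0.11 and 0.19. Over the 16 mitochondrial members the median fitted log2 ratio was -0.06, with 6 positive and 10 negative values between -0.36 and 0.48.

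Among the peroxisomal genes, Acaa1a, a 3-ketoacyl-CoA thiolase of the last step, came nearest to the threshold. Its signal was 39678, 37144, 44156 and 44367 in knockout mice, against 55066, 52664, 49312 and 56937 in control mice, with no overlap. Its log2 ratios were -0.47, -0.50, -0.16 and -0.36, and the fitted value was -0.37 ± 0.07 (limma adjusted p = 0.108). Under 6 of 14 alternative settings Acaa1a passed 0.1, with an adjusted p of 0.0636 without background correction and 0.0239 in the separate-channel fit. The paralog Acaa1b did not share this pattern: its log2 ratios were 0.59, -0.10, 0.21 and -0.20, and the fitted value was 0.12 ± 0.15. The difference between the paralogs was not tested.

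Ehhadh, the bifunctional enzyme whose transcript is a classical PPAR alpha target, had log2 ratios of -0.29, -0.69, 0.25 and 0.26 and a fitted value of -0.12 ± 0.09, with the sign again split by dye orientation. Hsd17b4, the other bifunctional enzyme, had a fitted value of 0.01 ± 0.06. Decr2, the peroxisomal reductase for unsaturated chains, had signals of 10189, 8341, 9163 and 4188 in knockout mice, against 6207, 4481, 11051 and 9003 in control mice. It was higher in the knockout mouse on replicates 1 and 2, at 0.72 and 0.90, and lower on replicates 3 and 4, at -0.27 and -1.10, which averaged to 0.06 ± 0.16.

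Crot, which makes medium-chain carnitine esters for export to mitochondria, was below 0 on 3 of 4 arrays, with a fitted value of -0.28 ± 0.11 (adjusted p = 0.245). Ech1, an isomerase of dienoyl-CoA, and Pex11a, a membrane protein of peroxisome division, had fitted values of -0.08 ± 0.06 and 0.00 ± 0.08. The median over the 8 peroxisomal members was -0.04, with 4 positive and 4 negative values.

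The ketogenic members differed in sign. Acat1, the mitochondrial acetoacetyl-CoA thiolase, had signals of 6466, 5703, 5713 and 6303 in knockout mice, against 9211, 7245, 7143 and 6922 in control mice, with no overlap. The fitted log2 ratio was -0.33 ± 0.07 and did not pass (adjusted p = 0.135). Bdh1, which reduces acetoacetate to beta-hydroxybutyrate, was above 0 on all 4 arrays at 0.09, 0.32, 0.07 and 0.09 on its brightest probe, with a fitted value of 0.14 ± 0.07 (adjusted p = 0.321). The other 2 Bdh1 probes had both signs over the arrays and averaged 0.17 and 0.03.

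So did the acyl-CoA synthetases. Acsl1, the main long-chain synthetase of liver, was below 0 on all 4 arrays at -0.17, -0.24, -0.01 and -0.35, with a fitted value of -0.19 ± 0.08 (adjusted p = 0.282). Acsl5, a long-chain synthetase of outer mitochondrial and endoplasmic reticulum membranes, had a fitted value of 0.11 ± 0.08 (adjusted p = 0.450). There were 6 member genes with more than 1 probe, and in none did the probes' mean ratios differ in sign.

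The sign of some members differed between the dye orientations. In 10 of 33 the arrays with the knockout in Cy3 were all of 1 sign and those with it in Cy5 all of the other, against 22.7% of all genes, a difference that was not tested. Of these 10, 7 were above 0 with the knockout in Cy5 (Acadl, Acaa2, Etfdh, Ehhadh, Hsd17b4, Acsl5 and Pdk4) and 3 with it in Cy3 (Acads, Decr2 and Pex11a). Across the 33 members, Pearson's r between replicates 3 and 4 was 0.84 (0.50 over all genes), between replicates 1 and 2 it was 0.50 (0.24 over all genes), and the pairs of unlike orientation gave 0.38 for replicates 1 and 3 (0.18 over all genes), 0.41 for 2 and 3 (0.27), 0.34 for 2 and 4 (0.21) and -0.05 for 1 and 4 (-0.24). These are descriptions across genes, which share the array, and genes are not independent replicates. A few members of large ratio weigh on r, such as Fgf21 (1.49 and 2.72 on replicates 3 and 4) and Pdk4 (1.37 and 1.80). The value of r without them was not computed.

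**Figure D3:**
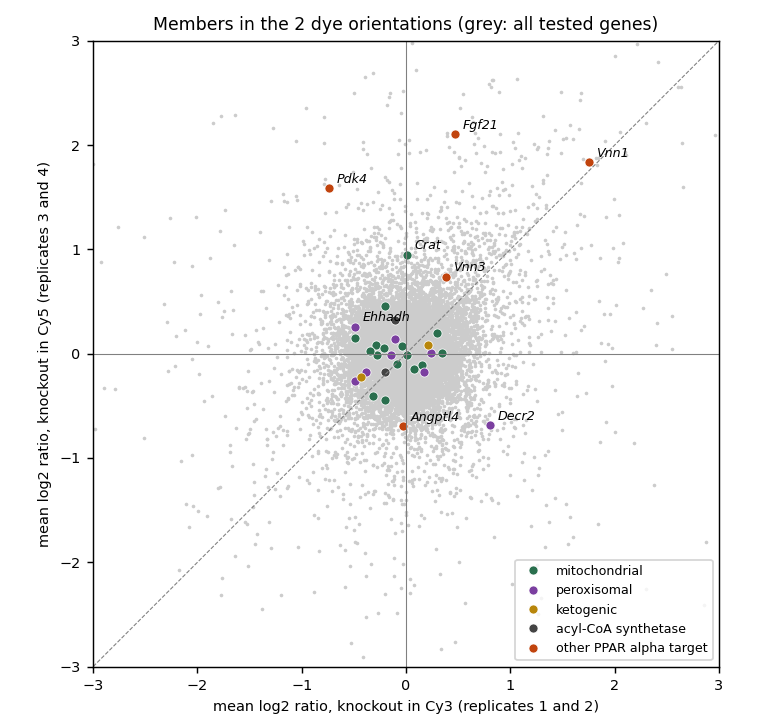
Mean log2 ratio of knockout over control on replicates 1 and 2 (knockout in Cy3, horizontal) and on replicates 3 and 4 (knockout in Cy5, vertical), with members coloured by class, all tested genes in grey and the dashed line marking equality. Vnn1 lies near the line, Pdk4 and Decr2 lie in opposite off-diagonal corners, and 37 genes, none of them a member, fall outside the axes at 3.

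The promoters of 3 members are printed because the PPAR alpha and RXR pair binds 2 hexamer half-sites spaced by 1 base, and the windows show such a half-site in each orientation and a window without one. The windows hold the 250 bases before the start of the gene in RefSeq, on GRCm38.p6 and 5′ to 3′ on the strand of the gene, and capitals mark the half-site AGGTCA or its reverse complement TGACCT.
Vnn3, chr10:23851212-23851461 (+): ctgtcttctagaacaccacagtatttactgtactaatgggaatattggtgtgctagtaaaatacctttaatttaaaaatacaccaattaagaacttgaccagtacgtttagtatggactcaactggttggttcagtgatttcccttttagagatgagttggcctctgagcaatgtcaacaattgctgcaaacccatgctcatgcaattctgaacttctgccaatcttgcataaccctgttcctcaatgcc
Acadvl, chr11:70015429-70015678 (-): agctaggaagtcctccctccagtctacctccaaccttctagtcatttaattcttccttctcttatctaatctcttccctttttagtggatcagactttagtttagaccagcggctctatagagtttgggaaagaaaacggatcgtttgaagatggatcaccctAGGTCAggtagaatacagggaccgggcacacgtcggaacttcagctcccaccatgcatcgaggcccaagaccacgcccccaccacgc
Cpt1a, chr19:3323051-3323300 (+): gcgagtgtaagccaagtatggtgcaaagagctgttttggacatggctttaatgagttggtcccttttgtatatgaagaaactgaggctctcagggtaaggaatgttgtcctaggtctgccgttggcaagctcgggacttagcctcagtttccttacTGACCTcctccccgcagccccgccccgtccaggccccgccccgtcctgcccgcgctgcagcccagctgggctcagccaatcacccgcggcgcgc
The half-site begins 87 bases before the start in Acadvl and 94 bases before it in Cpt1a, and the Vnn3 window holds none. Of 28 promoters of the 26 members in the RefSeq table, 3 held the half-site on either strand (Acadm, Acadvl and Cpt1a), against 14.0% of 32851 promoters of the same length. The full repeat AGGTCANAGGTCA was in 0 of the 28, against 0.0335% of all promoters, and the looser AGGNCANAGGNCA in 0 of the 28, against 0.338%. Both repeats are so rare over all promoters that 28 windows could hardly show a difference. Sequence outside the 250 bases was not searched. A match is a description of letters. The fitted log2 ratios of the 3 genes with the half-site were 0.18, -0.36 and -0.14.

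Other genes of these pathways were counted from lists chosen with earlier results of these data known. Of 24 further mitochondrial oxidation genes 22 were tested, with a median log2 ratio of -0.01, and 1 fell at an adjusted p under 0.1: Acad12, an acyl-CoA dehydrogenase family member, at -0.72 ± 0.06 (adjusted p = 0.0651). Of 22 further genes of peroxisomal oxidation 20 were tested, with a median of -0.09, and 1 fell, Hao1, the peroxisomal glycolate oxidase, at -0.50 ± 0.06 (adjusted p = 0.0774). All 18 peroxisome biogenesis genes were tested, with a median of 0.09, and 1 fell, Pex6, an ATPase of receptor recycling, at -0.39 ± 0.07 (adjusted p = 0.0983). Of 9 further ketone body genes 8 were tested, with a median of 0.05, and 1 fell, Oxct1, the transferase that reactivates acetoacetate, at -0.37 ± 0.06 (adjusted p = 0.0946). None of these 4 lists held a gene that rose at that threshold, at which 2.65% of all genes rose and 1.53% fell. Acad12 and Oxct1 were dim, with signals of 226 to 444 and 171 to 286 over all mice.

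Among 14 genes listed as PPAR alpha regulators, a list that includes Ppara itself and other nuclear receptors, the median was -0.05 and none passed. The largest values there were 0.71 ± 0.16 for Pparg (adjusted p = 0.135) and 0.32 ± 0.14 for the corepressor Ncor1 (adjusted p = 0.282). Pparg was also on the list of adipocyte markers.

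Of 33 further PPAR alpha targets that are not members, 32 were tested, 27 had a positive fitted log2 ratio and the median was 0.32, where 7677 of all 16247 genes were positive. The 27 include Fabp3, named after its values were seen, which was well above background in 4 knockout mice and 2 control mice. It entered the test through the knockout alone. This list too was chosen with earlier results of these data known, so its counts are descriptions and not a test. It holds paralogs of nearly equal log2 ratios. Named after their values were seen, Cyp4a10 had -1.66, 0.93, 0.64 and 1.32, and Cyp4a31 had -1.67, 0.97, 0.66 and 1.31. At an adjusted p under 0.1, 4 rose and none fell, against 2.65% and 1.53% of all genes. The 4 were Mogat1, Cd36, Fitm1 and G0s2. Mogat1, a monoacylglycerol acyltransferase, was at 2.82 ± 0.33 (limma adjusted p = 0.0732) and the fatty acid transporter Cd36 at 2.25 ± 0.23 (0.0673). Fitm1 was at 1.73 ± 0.15 (0.0656) and the lipase inhibitor G0s2 at 1.50 ± 0.21 (0.0842). In this list, and named after their values were seen, Cyp4a14 had log2 ratios of -4.37, 1.41, 2.48 and 3.90, and Acot1 to Acot5 were likewise below 0 on replicate 1 and above 0 on replicates 2 to 4, the order of signs shown by Fgf21.

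Lists for fasting and the clock were read because both act on PPAR alpha targets. Of 12 fasting genes the median was -0.13 and none passed, with fitted values of -1.66 ± 0.34 for Igfbp1 (adjusted p = 0.127) and -0.99 ± 0.23 for Pck1 (adjusted p = 0.141). Of 15 clock genes 12 were tested, with a median of 0.11, and none passed, with 0.83 ± 0.30 for Usp2 and 0.76 ± 0.24 for Dbp. Their part in the member values was not tested.

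**Figure D4:**
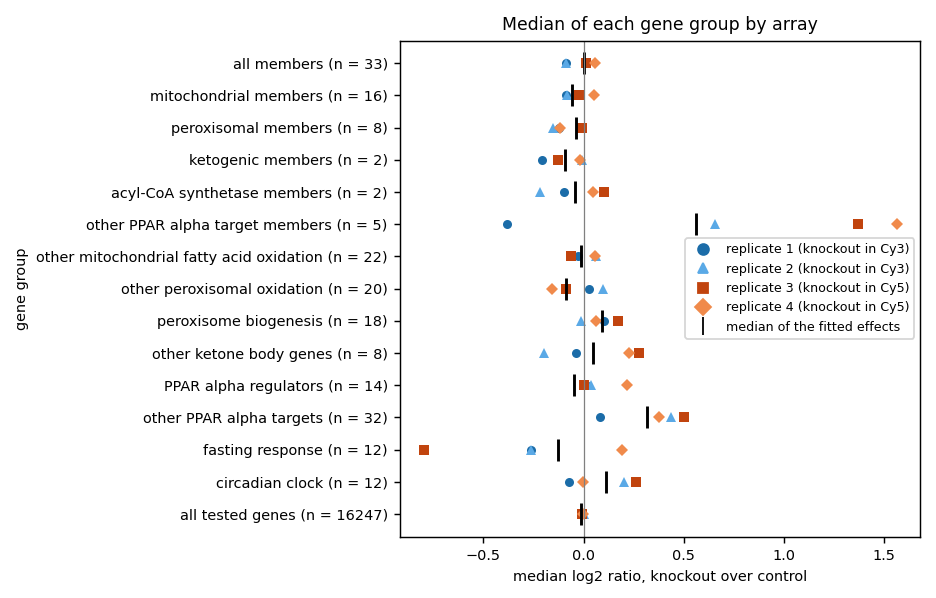
Median log2 ratio of knockout over control in each gene group, with coloured points for the 4 arrays and a black tick for the median of the fitted effects, and the number of tested genes in brackets. The further PPAR alpha targets among the members have medians of -0.38 on replicate 1 and between 0.66 and 1.56 on the other arrays, while the enzyme classes lie near 0, as do all tested genes.

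Cell type markers were read beside these values. Hepatocyte markers were present in every mouse, with a median log2 ratio of -0.10 over 12 tested of 13, of which 4 were positive and 8 negative, 2 above 0 and 3 below 0 on all 4 arrays, and 1 called at 0.1. The called gene, Alb (albumin), had signals of 206372, 209213, 256754 and 198612 in knockout mice, against 205886, 187788, 138223 and 114748 in control mice, and a fitted log2 ratio of 0.46 ± 0.07 (adjusted p = 0.0868). Of 10 listed biliary markers 9 were tested, and 8 were positive. At an adjusted p under 0.1, 4 rose (Dmbt1 2.60, Tspan8 1.69, Krt19 0.90 and Cd24a 0.61), against 2.65% of all genes. Sox9, named after its values were seen, was negative, at -0.37 ± 0.19. The summed signal ran between 1763 and 3958 in knockout mice, against 681 to 1567 in control mice. Dmbt1 alone gave 464 to 2259 of it in knockout mice and 97 to 320 in control mice. None of the 9 was at 0, and Epcam, named after its values were seen, was well above background in 4 knockout mice and 1 control mouse. Epcam entered the test through the knockout alone and is among the 8 positive markers. Their part in the Vnn1, Vnn3 and Crat values was not tested. Of the Kupffer cell, endothelial and stellate markers 9, 10 and 10 were tested, with medians of -0.09, -0.16 and -0.05 and no call at 0.1. Adipocyte and muscle markers had 7 of 11 and 1 of 10 tested, with no call.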

How the data were processed

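Liver RNA of 4 knockout and 4 control mice was measured on 4 two-colour arrays of Agilent design 026655. Per the file headers, Agilent Feature Extraction 10.7.3.1 gave each spot a processed intensity per dye, which was background-subtracted, detrended and dye-normalized, with flags and probe positions on mm9. The deposited log10 ratios of Cy5 over Cy3 were not tested. The log2 values in the authors' deposited table lay within 0.0001 of log2 knockout over control from the processed signals for all 43020 spots of each array, so their scale and direction are known and no centring was added. Their column medians were -0.05, 0.14, -0.18 and -0.18.

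Control spots and spots flagged as outliers (194 to 230 per array) were left out, and spots of a probe were averaged. No spot was saturated. Probes entered the test when the scanner software marked them as above background in 3 or more mice of either genotype, which kept 20830 of 39429 probes. Of these 39429 probes, 27234 were named through a RefSeq accession, the others kept the name of the array design, and 2744 had none. The tested probe with the highest average intensity stood for its gene. The log2 ratios were fitted in limma 3.58.1 under R 4.3.3 with a dye intercept, and p-values, two-sided, were adjusted by Benjamini-Hochberg over all 16247 genes or unnamed probes. Thresholds were 0.05 and 0.1. The fit was checked on simulated data. Tables used data.table (version 1.17.8) and pandas 2.3.3, and figures matplotlib 3.10.9. Processed signals were chosen for the main result because normexp background correction, used as an alternative, fitted background means of -273 (Cy3) and -185 (Cy5) on replicate 1. Fitted without spots of non-uniform background, a further alternative, these were 4.07 and -12.2.

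The members and the gene lists were chosen with earlier results of these data known. The text names all 33 members, Ppp1r8, Ppara and, of each list, up to 4 genes of largest log2 ratio among those past an adjusted p of 0.1 with 1 sign on all 4 arrays, otherwise up to 2 of largest log2 ratio. Genes named beyond this rule are said to be so. Alternatives changed the background correction, the centring, the dye term, the filter, the probe rule and the variance model, left out each array or fitted the channels separately. All arrays lay on 1 slide. P-values of the main result measure the spread between arrays of the same dye orientation, each a pair of mice. The dye intercept takes up the gap between orientations, and the p-values leave out any difference between mice that lies in it.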

Additional observations from a re-analysis of the deposited data

Results flagged for a closer look

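The log2 ratio of Bdh1 on replicate 2 was 0.32, apart from 0.09, 0.07 and 0.09 on the other arrays, a gap of 0.90 of the whole range, above Dixon's critical value for 4 samples. It was the only such value among 38 sets of 4 tested, and chance gives about 1 in 20. A second Bdh1 probe was also highest on replicate 2, at 0.49, and the third was highest on replicate 4, at 0.26.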

How the results depend on the processing

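Beside 0 members at an adjusted p of 0.05, the model without a dye term called 1 (Vnn1), trended and robust variance 1 (Vnn1) and the separate-channel fit 8. Beside 3 higher at 0.1, the count was 1 without a dye term, 0 without the filter on dim probes, 5 in the separate-channel fit, and 0 to 0 over the fits without 1 replicate each, which leave 1 residual degree of freedom. Beside 0 lower at 0.1, it was 1 with normexp on all spots, 2 with normexp fitted without spots of non-uniform background, 2 with no background correction, 1 with only probes above background in all 8 mice, 2 with trended and robust variance and 6 in the separate-channel fit. Members below 0 on every array numbered 5 to 10 and the peroxisomal median ran from -0.102 to -0.014 over the fits without 1 replicate. The mitochondrial, peroxisomal and ketogenic medians kept their sign in every alternative, and the counts above 0 on all arrays were 4 to 6. Vnn1 ran from 1.61 to 1.96 (adjusted p 0.00249 to 0.251), Vnn3 from 0.48 to 0.64 (0.0139 to 0.304) and Crat from 0.30 to 0.55 (0.00724 to 0.391). Over all genes, calls at 0.05 were 8, against 31 without a dye term, 29 without background correction, 61 with trended and robust variance, 2511 with separate channels and 0 with either normexp fit, without the filter, with the strict filter or without any 1 replicate. Calls at 0.1 were 431 higher and 249 lower, against 250 and 206 with normexp on all spots, 658 and 389 without background correction, 147 and 67 without a dye term, 7 and 6 without the filter, 637 and 416 with trended and robust variance, 2074 and 2011 with separate channels and 0 without any 1 replicate. The cause was not tested. The ratio of an array is itself the comparison within its pair of mice, and the separate-channel fit models that pairing as a correlation of 0.409.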
